A study of Homo sapiens with 8 samples.

Results

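Membrane mucins are large cell surface glycoproteins, and the 6 genes described here are MUC1, MUC4, MUC13, MUC15, MUC16 and MUC20. They were taken by gene symbol, by a rule that names the genes and uses no measured value, although the set was drawn up with earlier results of these data known. They are 6 of the 27475 human genes in the deposited tables, each with 1 entry. mRNA was sequenced from UM-UC-3 and RT112, which are long-established human bladder cancer lines. Each line received either siPAI-1, in which 3 siRNAs that target the PAI-1 mRNA were pooled, or Scr, in which 3 scrambled siRNAs were pooled, at 100 pmol and for 72 h, giving 4 groups of 2 libraries each. All groups therefore went through transfection, there was no untransfected group, and each line stands for itself alone. The cultures were kept in RPMI 1640 or DMEM, and the labels do not say which line had which, so line and medium cannot be told apart. The paper describes the knock-down as done in independent replicate experiments, but neither it nor the labels tie the libraries of 1 group to separate cultures, so p-values measure the spread between these libraries, which may be technical.

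A membrane mucin carries a long extracellular domain rich in serine and threonine, on which chains of O-linked sugars are built in the Golgi, and most are anchored by a transmembrane segment with a short cytoplasmic tail. On epithelia such as the urothelium they form a hydrated coat on the luminal surface and take part in signaling. MUC1 is cleaved into a heterodimer whose tail binds beta-catenin and receptors of the ErbB family. MUC4 carries EGF-like domains and pairs with ERBB2, MUC16 is the CA125 antigen and binds mesothelin, and MUC20 has been described as a partner of the receptor MET. MUC13 is best known from the gut, and MUC15 is a smaller member.

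The libraries were of similar depth, estimated at 29.2 to 34.0 M reads (M for mega), and between 16157 and 16663 genes were above 0 in each. Values are given in transcripts per 1000000 (TPM), which divide by gene length and give a gene's share of a library. Differences were tested with limma on log2(TPM + 0.1), as log2 fold changes with Benjamini-Hochberg adjustment across all genes tested. RT112 carried most of the markers of bladder epithelium, with 706.54 to 813.88 TPM summed over 5 uroplakin genes and 7713.11 to 8296.49 TPM over 6 epithelial genes. The uroplakin sum came mostly from UPK1B, at 580.28 to 644.33 TPM. UPK1A stood at only 0.36 to 1.96 TPM in RT112 and UPK3A at 0 to 0.08 TPM. UM-UC-3 had 0.47 to 1.95 TPM of uroplakins, CDH1 (E-cadherin) between 0 and 0.48 TPM and EPCAM between 0.14 and 0.46 TPM, so its defining urothelial markers were at or near 0, while its keratins KRT8 and KRT18 were present. Leukocyte markers summed to at most 0.5 TPM and endothelial markers to at most 2.35 TPM in any library.

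In the Scr libraries the lines expressed different membrane mucins. MUC20, MUC1 and MUC4 were higher in RT112, MUC15 was higher in UM-UC-3, and MUC13 and MUC16 were close to 0 in both. Of the 6 genes, 4 passed the test (adjusted p under 0.05, limma), 3 of them higher in RT112 and 1 lower. The lines differed widely, since 51.6% of the 19201 genes tested passed, 25.3% as higher and 26.3% as lower in RT112, and the share of the mucins is to be read against that background. In bulk RNA of this kind, fewer cells that express a gene and less RNA per cell cannot be told apart.

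MUC20 had the widest difference of the 6. It was at 0.05 and 0 TPM in UM-UC-3 Scr replicates 1 and 2 and at 22.15 and 21.5 TPM in RT112 Scr, so that the groups lay far apart. The log2 fold change was 7.48 (SE 0.31, 95% interval 6.62 to 8.35, limma, adjusted p = 4.87e-04) on the log2(TPM + 0.1) scale, and 222 of the genes tested, or 1.16%, differed at least as far. Because the UM-UC-3 level lies near 0, this size depends on the pseudocount and ran from 4.48 with 1 TPM added to 9.80 with 0.01 TPM added. MUC20 shares 1851 of its 6837 annotated exon bases, on the same strand, with the long non-coding RNA MUC20-OT1, named LINC00969 in the tables. That RNA stood at 44.43 and 47.55 TPM in UM-UC-3 Scr and at 26.71 and 26.13 TPM in RT112 Scr, so its values were higher where MUC20 was near 0.

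MUC1 was expressed in every library. UM-UC-3 Scr had 3.57 and 2.69 TPM (mean 3.13 ± 0.622, SD, n = 2) and RT112 Scr had 10.15 and 14.58 TPM (mean 12.4 ± 3.13, SD, n = 2). The lowest RT112 value was thus well above the highest of UM-UC-3. The log2 fold change was 1.94 (SE 0.26, 95% interval 1.21 to 2.67, limma, adjusted p = 0.0063), and 20.4% of the genes tested differed at least as far. With any 1 of the 4 libraries left out, the adjusted p rose to between 0.0661 and 0.1128 while the log2 fold change stayed between 1.68 and 2.20.

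MUC4 was low in both lines but measurable in RT112. It stood at 0.03 and 0.06 TPM in UM-UC-3 Scr and at 1.81 and 1.5 TPM in RT112 Scr, a log2 fold change of 3.60 (SE 0.32, limma, adjusted p = 0.0020). The size fell to 1.34 with a pseudocount of 1 TPM and grew to 4.97 with 0.01 TPM.

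MUC15 showed the opposite pattern and was the leading membrane mucin of UM-UC-3. It stood at 6.51 and 6.26 TPM in UM-UC-3 Scr and at 0.25 and 0.02 TPM in RT112 Scr. The log2 fold change was -4.98 (SE 0.60, 95% interval -6.65 to -3.32, limma, adjusted p = 0.0045), and 4.76% of the genes tested differed at least as far. Because the RT112 level lies near 0, this size depends on the pseudocount. It ran from -2.71 with 1 TPM added to -6.18 with 0.01 TPM added. The adjusted p became 0.1167 without UM-UC-3 Scr replicate 1 and 0.1158 without replicate 2. MUC15 lies on the opposite strand from the ion channel family gene ANO3 and shares 175 of its 3587 exon bases with it. ANO3 was also higher in UM-UC-3, at 1.26 and 0.83 TPM against 0 and 0.02 TPM in RT112 Scr. The library kit keeps the strand, but whether the counting used it is not given in the sources used here.

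MUC13 and MUC16 gave too few reads to compare. MUC13 was at 0.03 and 0.18 TPM in UM-UC-3 Scr, at most 10.7 estimated reads in 1 library, and was listed at 0 in the other 6 libraries. MUC16 was listed at 0 in all UM-UC-3 libraries and at 0.01 to 0.02 TPM in RT112. Its longest transcript has 43816 bases, so that the smallest value the tables can print, 0.01 FPKM, stands for 12.8 to 14.9 reads, and a 0 for this gene does not exclude several reads. Neither passed the test between lines (limma, adjusted p = 0.1736 for MUC13 and 0.4013 for MUC16).

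**Figure D1:**
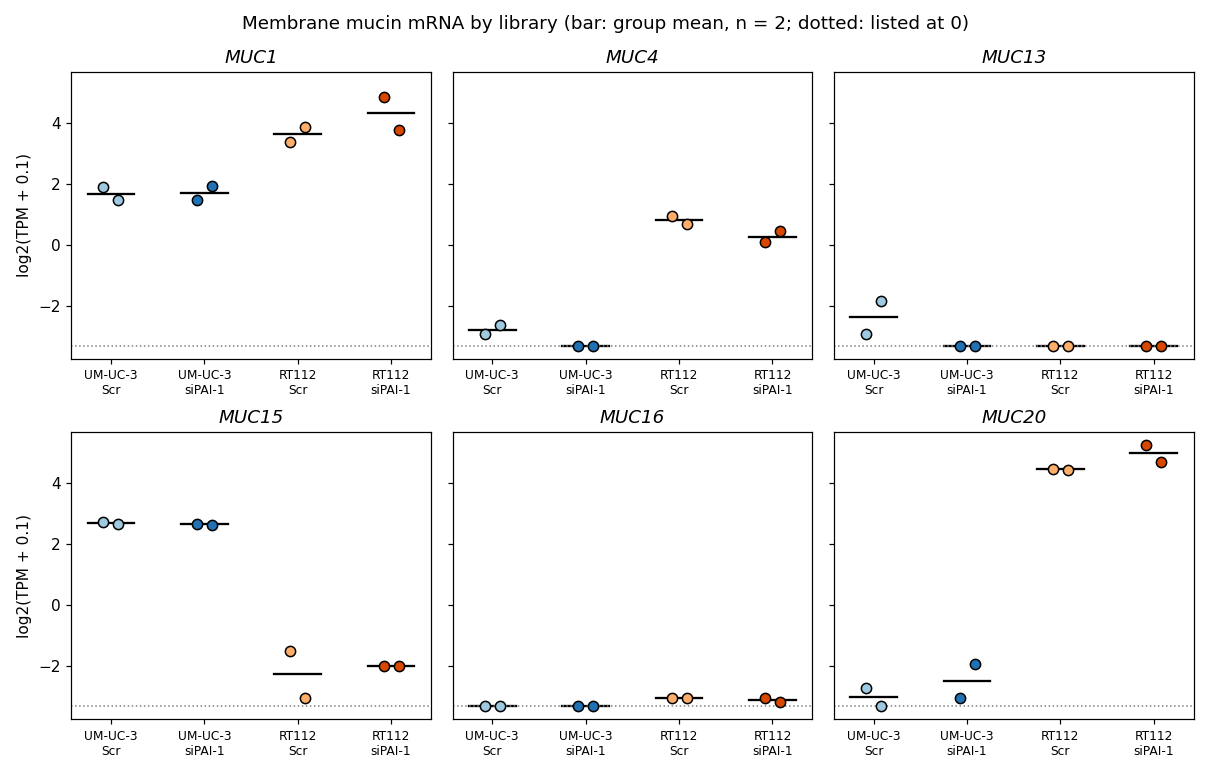
Level of each membrane mucin in the 8 libraries, as log2(TPM + 0.1) on the vertical axis, by cell line and siRNA on the horizontal axis; points are libraries, bars are the means of the 2 libraries of a group and the dotted line is a value listed at 0. MUC20, MUC1 and MUC4 lie higher in RT112, MUC15 lies higher in UM-UC-3, and MUC13 and MUC16 lie on or near the dotted line.

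Added up, the 6 genes gave 8.93 to 10.19 TPM in the UM-UC-3 libraries, against 34.38 and 37.62 TPM in RT112 Scr. MUC15 made up 60.84% to 69.76% of the sum in the UM-UC-3 libraries and MUC1 most of the rest, at 29.27% to 37.55%. In RT112, MUC20 made up 55.84% to 64.43%, MUC1 29.52% to 42.51% and MUC4 1.4% to 5.26%. The order in RT112 Scr was therefore MUC20, MUC1, MUC4 and MUC15, with no overlap between neighbors, followed by MUC16 at 0.02 TPM, which reached the lower MUC15 value, and MUC13 at 0. In UM-UC-3 Scr the order was MUC15 and MUC1, which did not overlap, and then MUC13, MUC4 and MUC20 below 0.2 TPM, which did overlap. The leading gene of each line was not among the most abundant transcripts: MUC20 in RT112 Scr lay above 78.18% to 78.43% of all human genes and MUC15 in UM-UC-3 Scr above 66.42% to 66.69%.

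**Figure D2:**
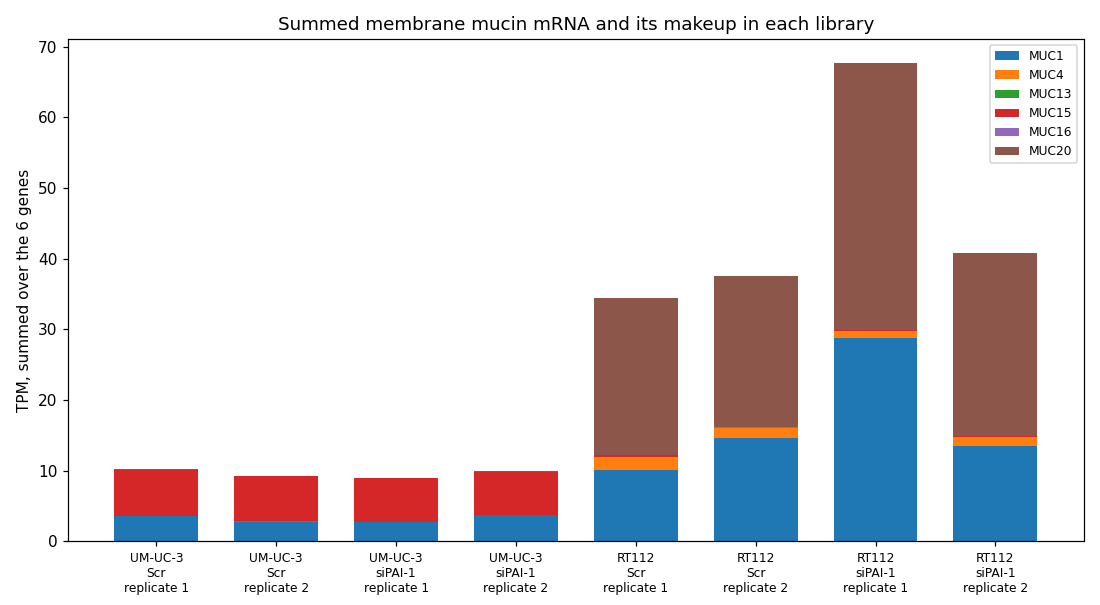
Summed TPM of the 6 membrane mucins in each library on the vertical axis, with each library on the horizontal axis and the genes stacked by color. The UM-UC-3 columns of 8.93 to 10.19 TPM are mostly MUC15 and MUC1, and the taller RT112 columns are mostly MUC20 and MUC1, tallest in siPAI-1 replicate 1 at 67.73 TPM.

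The line contrast was repeated in the siPAI-1 libraries, which the first comparison did not use. Of the 5 mucins above 0 there, 4 passed the test, against 52.2% of the 19359 genes tested. MUC20 had 37.82 and 25.95 TPM in RT112 against 0.02 and 0.16 TPM in UM-UC-3, with a log2 fold change of 7.48 (SE 0.48, limma, adjusted p = 0.0010). MUC1 was at 2.68 and 3.74 TPM against 28.79 and 13.48 TPM, with a log2 fold change of 2.60 (SE 0.43, limma, adjusted p = 0.0109). Both were thus higher in RT112 in these libraries too. MUC15 was at 0.15 TPM in both RT112 libraries and at 6.23 and 6.06 TPM in those of UM-UC-3, with a log2 fold change of -4.64 (SE 0.25, limma, adjusted p = 7.57e-04). With 1 and 0.01 TPM added, the MUC15 size was -2.64 and -5.27, and that of MUC20 was 4.89 and 8.78. MUC4 was listed at 0 in both UM-UC-3 libraries and stood at 0.95 and 1.25 TPM in RT112 (limma, adjusted p = 0.0020), and no fold is given against the 0. Without RT112 siPAI-1 replicate 1, 2 of the 5 mucins passed, MUC4 and MUC15, with MUC20 at an adjusted p of 0.0538 (limma) and MUC1 at 0.0806 (limma). Without RT112 siPAI-1 replicate 2, MUC20 was at 0.0506 (limma) and MUC1 at 0.0524 (limma). MUC1 was at 0.1738 (limma) without UM-UC-3 siPAI-1 replicate 1 and at 0.1412 (limma) without replicate 2, so it lost its call with any 1 of the 4 libraries left out.

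**Figure D3:**
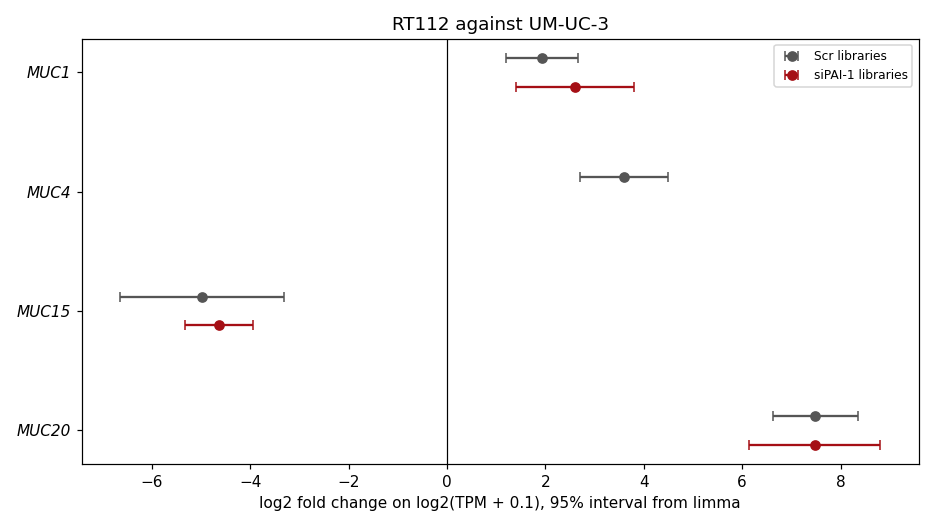
Log2 fold change of RT112 against UM-UC-3 on log2(TPM + 0.1) for 4 mucins, in the Scr and in the siPAI-1 libraries; points are limma estimates and bars are 95% intervals. MUC20, MUC1 and MUC4 lie to the right (7.48, 1.94 and 3.60 in Scr) and MUC15 to the left (-4.98); MUC4 has no siPAI-1 point because UM-UC-3 was listed at 0 there.

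MUC20 and MUC4 are neighbors on chromosome 3, at chr3:195720978-195733551 and chr3:195746771-195811929 (GRCh38.p14, RefSeq), with 13219 bases between them. MUC1 lies at chr1:155185824-155192915, MUC15 at chr11:26559032-26572263, MUC13 at chr3:124905442-124934751 and MUC16 at chr19:8848844-9065751. The genes around the 4 mucins that differed were looked at by distance, a choice made after the mucin values were seen. Within 250000 bases of MUC20, 3 of the 4 protein-coding genes tested were higher in RT112, where 25.3% of all genes were, namely MUC4 itself, APOD and PPP1R2, and TNK2 did not pass. This count includes MUC4, which was already seen to be higher, and nothing is read from it. APOD, a lipid-binding apolipoprotein, was listed at 0 in all UM-UC-3 libraries and stood at 10.47 and 9.99 TPM in RT112 Scr. PPP1R2, an inhibitor of a protein phosphatase, had a log2 fold change of only 0.43 (limma, adjusted p = 0.0107). Around MUC1, 11 of 27 genes tested were higher and 5 lower in RT112, where 25.3% and 26.3% of all genes were. Nothing is read from this count either. The nearest of them, TRIM46, at 852 bases, had a log2 fold change of -1.48 (limma, adjusted p = 0.0311), and THBS3, at 2672 bases, one of 0.93 (limma, adjusted p = 0.0293). Around MUC15, 1 of 2 genes tested was lower in RT112, the overlapping ANO3. Around MUC4, which shares most of its surroundings with MUC20, 4 of 5 were higher, MUC20 among them.

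Of the 6 genes, 4 matched the RefSeq promoter sequences by symbol (MUC1, MUC4, MUC13 and MUC16). The first entry of MUC1 and the entry of MUC4 are shown because both genes were higher in RT112 and because the transcriptional repressor ZEB1, known to bind E-boxes of the form CACCTG, was among the mesenchymal markers that were lower in RT112. ZEB1 stood at 43.14 and 44 TPM in UM-UC-3 Scr and at 0.24 and 0.21 TPM in RT112 Scr. Each stretch covers the 250 bases before the start (GRCh38.p14, minus strand, 5′ to 3′), at chr1:155192916-155193165 for MUC1 and chr3:195811930-195812179 for MUC4. Capitals mark the motifs, which were searched on both strands. They are the E-box CACCTG, whose other strand reads CAGGTG, the TATA box TATAAA, which on the opposite strand is spelled TTTATA, and the GC box GGGCGG, found in reverse as CCGCCC.
MUC1: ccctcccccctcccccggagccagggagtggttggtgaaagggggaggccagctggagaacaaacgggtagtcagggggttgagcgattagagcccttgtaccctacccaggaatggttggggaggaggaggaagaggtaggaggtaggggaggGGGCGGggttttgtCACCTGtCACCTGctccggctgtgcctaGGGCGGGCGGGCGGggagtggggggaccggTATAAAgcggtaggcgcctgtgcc
MUC4: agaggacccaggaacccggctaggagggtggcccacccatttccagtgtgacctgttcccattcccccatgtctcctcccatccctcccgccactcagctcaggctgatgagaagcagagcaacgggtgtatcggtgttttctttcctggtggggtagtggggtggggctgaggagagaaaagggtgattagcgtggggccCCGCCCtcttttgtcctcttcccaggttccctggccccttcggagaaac
The MUC1 stretch holds 2 E-boxes close together, 1 TATA box near its end and 4 GC boxes, 3 of which overlap in a row. The MUC4 stretch holds no E-box or TATA box of these spellings and 1 GC box on the other strand. Of 34788 RefSeq promoter stretches of this length, 17.5% hold this E-box on either strand, 10.8% hold the TATA box and 42.6% hold the GC box. The MUC1 stretch is 66.0% G and C with 11 CpG, and the MUC4 stretch 60.4% with 7 CpG, against medians of 58.0% and 11 over all promoters. Of the entries not shown, entry 2 of MUC1 and entry 2 of MUC16 also hold this E-box, and entry 1 of MUC16 and the MUC13 entry do not. These matches describe the letters in these windows and were not tested for binding. Whether ZEB1 bears on the level of any of these mucins was not tested either.

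Genes of the machinery that builds mucin sugar chains were also among those that differed between the lines, as members of several pathways were. Of 17 tested GALNT genes, whose enzymes attach the first GalNAc sugar, 9 were higher and 5 lower in RT112 Scr. Of all genes tested, 25.3% were higher and 26.3% lower, which is the background for the lists below too. The median log2 fold change of the GALNT genes was 0.36 against -0.06 over all genes tested. The most abundant enzymes of UM-UC-3 and RT112 included shared ones: GALNT2 had 90.44 and 93.88 TPM in UM-UC-3 Scr against 157.11 and 163.04 TPM in RT112 Scr (log2 fold change 0.80), GALNT1 38.38 and 38.21 TPM against 428.88 and 430.34 TPM (3.48), and GALNT7 24.69 and 29.93 TPM against 23.29 and 28.18 TPM, which did not pass. The widest differences were in enzymes near 0 in 1 line. GALNT3 had 84.92 and 79.17 TPM in RT112 against 0.29 and 0.18 TPM in UM-UC-3 (log2 fold change 7.96), while GALNT16 had 0.11 and 0.10 TPM in RT112 against 44.8 and 46.82 TPM in UM-UC-3 (-7.81). GALNT5 (4.18) and GALNT12 (4.08) were also higher in RT112, and GALNT13 (-6.77) and GALNT9 (-4.71) lower.

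Of 9 genes for the core structures and their extension, 6 were higher and 1 lower in RT112, where 25.3% and 26.3% of all genes were. B3GNT3, which extends the core 1 chain, had 48.75 and 46.06 TPM in RT112 against 0 and 0.11 TPM in UM-UC-3 (log2 fold change 8.36), and the branching enzymes GCNT4 (4.72) and GCNT1 (4.45) were higher as well. C1GALT1C1, the chaperone of the core 1 enzyme, was slightly lower (-0.54). Of 11 genes for capping sugars, 6 were higher and 4 lower, against the same shares of all genes. FUT3, the Lewis fucosyltransferase, was listed at 0 in UM-UC-3 Scr and stood at 11.81 and 10.62 TPM in RT112 Scr. FUT1 stood at 0.01 and 0 TPM against 4.5 and 4.75 TPM (log2 fold change 5.49), and ST6GALNAC1, which makes the sialyl-Tn cap, was listed at 0 against 1.77 and 1.06 TPM. ST6GALNAC3, FUT4 (-1.76) and ST3GAL2 (-1.64) were lower in RT112, ST6GALNAC3 being listed at 0 there. The medians were 1.24 for the core list and 1.86 for the capping list.

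Most partners and all tested proteases of the mucins were expressed in both lines. Of 12 binding partners tested, 9 were higher and 2 lower in RT112, where 25.3% and 26.3% of all genes were. Their median log2 fold change was 1.08. ERBB3, a receptor that pairs with ERBB2, was at 3.23 and 2.01 TPM in UM-UC-3 Scr and at 25.3 and 28.5 TPM in RT112 Scr (log2 fold change 3.35), and the galectin LGALS3 at 16.43 and 19.46 TPM against 205.64 and 201.82 TPM (3.50). ICAM1, a MUC1 ligand, was below 1 TPM in all libraries (2.72). The membrane linker MSN (moesin) was lower in RT112, at 5.06 and 6.02 TPM against 340.68 and 335.11 TPM (-5.91), as was the galectin LGALS1 (-2.89). All 4 sheddases, proteases that release mucin ectodomains, passed the test with small sizes: ADAM10 (0.69), ADAM9 (0.30) and MMP14 (0.25) were higher and ADAM17 (-0.41) was lower in RT112.

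Among 5 further transmembrane mucins, 4 were tested in the Scr libraries and none passed (limma; 0 at an unadjusted p under 0.05), with a median log2 fold change of 0.17. MUC3A and MUC12 were expressed in both lines, and MUC17, MUC21 and MUC22 reached at most 0.02 TPM. MUC3A ran from 0.71 to 2.43 TPM over the 8 libraries, with overlapping lines. MUC12 overlapped in Scr, with 2.68 and 1.57 TPM in RT112 against 1.52 and 2.06 TPM in UM-UC-3. In the siPAI-1 libraries MUC12 did not overlap and was higher in RT112, at 2.86 and 3.71 TPM against 1.41 and 1.49 TPM (log2 fold change 1.12, limma, adjusted p = 0.0227), while its siPAI-1 effect was not shown to differ between lines (limma, adjusted p = 0.8192). Of 6 secreted mucins looked for, MUC2 and MUC19 had no entry under these symbols, so nothing can be said of them. The 4 with an entry were near 0, at 0 to 0.1 TPM in sum. None of the 3 tested passed (limma), with 0 at an unadjusted p under 0.05. Of 7 mucin-like surface proteins, PARM1 (log2 fold change 3.64) and PODXL (1.33) were higher and CD164 (-0.23) was lower in RT112.

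Of 13 transcription factors of epithelial programs, 10 were higher and 0 lower in RT112, where 25.3% and 26.3% of all genes were. Their median log2 fold change was 6.41. ELF3, an epithelial ETS factor, had 191.53 and 192.3 TPM in RT112 against 0 and 0.32 TPM in UM-UC-3 (log2 fold change 9.87), followed by GRHL2 (8.65) and EHF (7.63). The mesenchymal markers SPARC (-9.36), VIM (-8.75) and ZEB1 (-7.07) were lower in RT112, while CDH2 (0.96) and FN1 (0.79) were higher. All 6 epithelial markers and 3 of 4 tested uroplakins were higher. How far these programs bear on the mucin levels was not tested. The lists are read against the 51.6% of all genes that passed, and were described by counts and medians only. For list genes near 0 in 1 line, such as ELF3, GRHL2 and B3GNT3, the sizes and their order depend on the 0.1 TPM added. So do medians that rest on such genes, and the lists were not recomputed with another pseudocount.

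**Figure D4:**
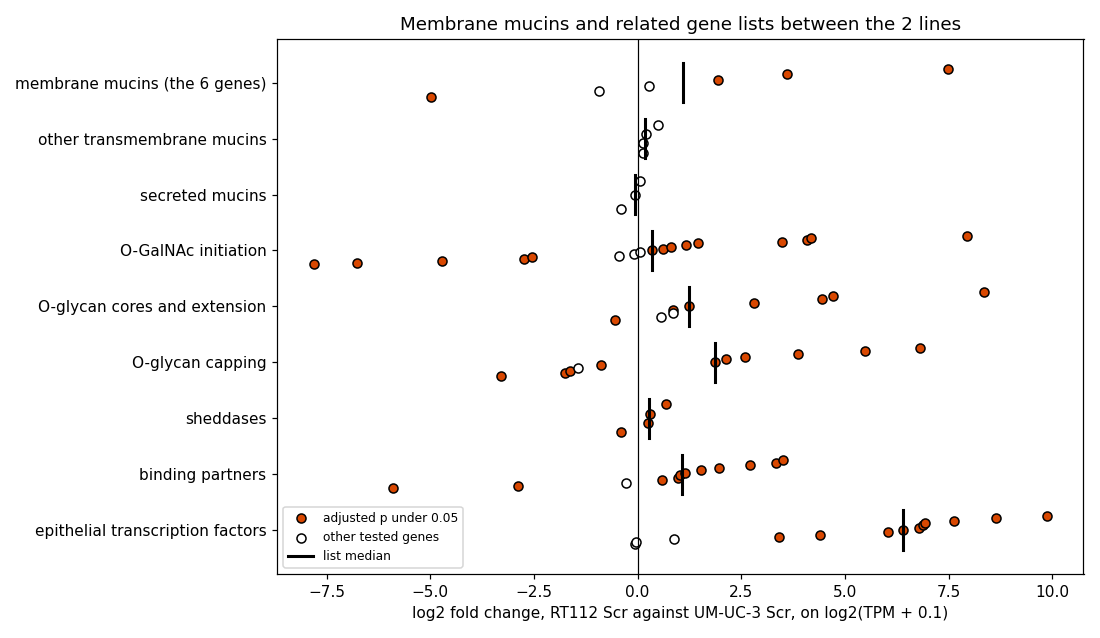
Log2 fold change of RT112 Scr against UM-UC-3 Scr on log2(TPM + 0.1) for each tested gene of the 6 membrane mucins and of 8 related lists; filled points passed limma at an adjusted p under 0.05, open points did not, and the black line is the list median. The membrane mucins run from -4.98 (MUC15) to 7.48 (MUC20), the GALNT genes from -7.81 to 7.96, and the epithelial transcription factors have the highest median at 6.41.

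The genes most like each mucin over the 8 libraries were found by the root mean square distance of their centered log2(TPM + 0.1) profiles, among genes that averaged 1 TPM or more. For MUC20 they were TMEM139 (distance 0.235), MDK, a heparin-binding growth factor (0.283), and the uroplakin UPK2 (0.292). TMEM139 stood at 0 to 0.29 TPM in UM-UC-3 and at 30.92 to 36.44 TPM in RT112. For MUC15 they were BMP6, a bone morphogenetic protein (0.122), the protocadherin PCDH10 (0.201) and the adaptor DAB2 (0.263), with BMP6 at 7.54 to 9.38 TPM in UM-UC-3 and 0.09 to 0.36 TPM in RT112. For MUC1 they were FAM102B (0.198), CAB39L (0.231) and NKD2 (0.242). All 3 shared with MUC1 a highest value in RT112 siPAI-1 replicate 1, which was 57.5 TPM for FAM102B against 36.84 TPM in replicate 2. As these genes were picked by their distance to MUC1 over the same libraries, the shared peak is no separate observation. These profiles are set mainly by the difference between the lines, and the points share their libraries, so the distances are a description.

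The study's own question was what follows when PAI-1 is reduced. The paper used DESeq2 on gene counts with a fold-change and a p-value cutoff, and reported that PAI-1 depletion mostly raised gene expression. The limma test on TPM used here differs in data, method and threshold. With 2 libraries per group, a count of 0 genes in either line does not show that nothing changed. Within UM-UC-3, none of the 5 mucins above 0 passed the test, nor did any other gene (0.0% of 18528 genes tested, limma), and 1114 genes or 6.01% had an unadjusted p under 0.05, with 0 mucins among them. MUC15 stood at 6.51 and 6.26 TPM in Scr and at 6.23 and 6.06 TPM in siPAI-1. The siPAI-1 values were just below, with a log2 fold change of -0.05 (95% interval -0.46 to 0.35, limma, adjusted p = 0.9522). MUC1 overlapped between the groups, at 3.57 and 2.69 TPM against 2.68 and 3.74 TPM, with a log2 fold change of 0.03 (95% interval -0.74 to 0.80, limma, adjusted p = 0.9873).

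The other mucins of UM-UC-3 were at the limit of what these libraries could measure. MUC20 had 0.05 and 0 TPM in Scr and 0.02 and 0.16 TPM in siPAI-1, overlapping groups of at most 16.4 estimated reads (log2 fold change 0.53, 95% interval -0.82 to 1.88, limma, adjusted p = 0.8725). MUC4 (0.03 and 0.06 TPM) and MUC13 (0.03 and 0.18 TPM) were seen in Scr and listed at 0 in siPAI-1 (limma, adjusted p = 0.8575 for each), and no fold is given. With MUC15, 3 of the 5 mucins tested thus had both siPAI-1 values below both Scr values, where 17.1% of all genes did so and 15.1% did the opposite.

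Within RT112, none of the 5 mucins above 0 passed the test, and no other gene did (0.0% of 18437 genes tested, limma). At an unadjusted p under 0.05 there were 1063 genes or 5.77%, 3.35% as higher, and MUC20 was the 1 mucin among them. MUC20 stood at 22.15 and 21.5 TPM in Scr (mean 21.8 ± 0.460, SD, n = 2) and at 37.82 and 25.95 TPM in siPAI-1 (mean 31.9 ± 8.39, SD, n = 2). Both siPAI-1 values were above both Scr values, as for 18% of all genes, with a log2 fold change of 0.52 (SE 0.20, 95% interval 0.01 to 1.03, limma, unadjusted p = 0.0484, adjusted p = 0.8381). The unadjusted p of MUC20 (limma) lay just above that level with 1 TPM added (0.0555), 0.01 TPM added (0.0510), FPKM (0.0553) or median ratio scaling (0.0514), and was 0.1055 without trend and 0.2769 in the fit over all 8 libraries. The estimate was 0.25 without siPAI-1 replicate 1 and 0.79 without siPAI-1 replicate 2. LINC00969, the RNA that shares exons with MUC20, stood at 26.71 and 26.13 TPM in Scr and at 29.67 and 27.99 TPM in siPAI-1.

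MUC1 in RT112 turned on 1 library. It stood at 10.15 and 14.58 TPM in Scr and at 28.79 and 13.48 TPM in siPAI-1, so that replicate 1 was the highest of the 8 libraries and replicate 2 lay inside the Scr range. The log2 fold change was 0.69 (SE 0.41, 95% interval -0.39 to 1.77, limma, adjusted p = 0.8381), and it was 0.15 without siPAI-1 replicate 1 and 1.24 without siPAI-1 replicate 2. RT112 siPAI-1 replicate 1 also had the highest MUC20 of its line, and the lowest CDH2 (7.65 TPM against 17.94 to 20.58 TPM in the other RT112 libraries) and FN1 (58.25 TPM against 108.44 to 120.39 TPM). The other mesenchymal markers VIM, ZEB1 and SPARC lay within the range of the other RT112 libraries. Among the 12803 genes averaging 1 TPM or more, the replicates of this group differed by over 1.5-fold in 9.9%, against 8.43% to 9.17% in the other groups. The root mean square log2 difference of its replicates was 0.451, against 0.440 to 0.455 in the other groups, so the group did not stand out by that measure. The part of this library's differences in the mucin values was not tested.

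MUC4 in RT112 stood at 1.81 and 1.5 TPM in Scr and at 0.95 and 1.25 TPM in siPAI-1. Both siPAI-1 values were below both Scr values, as for 14.7% of all genes, with a log2 fold change of -0.55 (95% interval -1.51 to 0.40, limma, adjusted p = 0.8381). The neighbors MUC20 and MUC4 therefore had estimates of opposite sign, neither of which passed. MUC15 (0.25 and 0.02 TPM in Scr, 0.15 TPM in both siPAI-1 libraries) and MUC16 (0.02 TPM in both Scr libraries, 0.02 and 0.01 TPM in siPAI-1) overlapped between the groups. Their log2 fold changes were 0.29 (limma, adjusted p = 0.9352) and -0.06 (limma, adjusted p = 0.9729). Both rested on few reads, with 1.9 to 17.2 estimated reads per RT112 library for MUC15. The summed TPM of the 6 genes was 34.38 and 37.62 in Scr and 67.73 and 40.84 in siPAI-1.

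**Figure D5:**
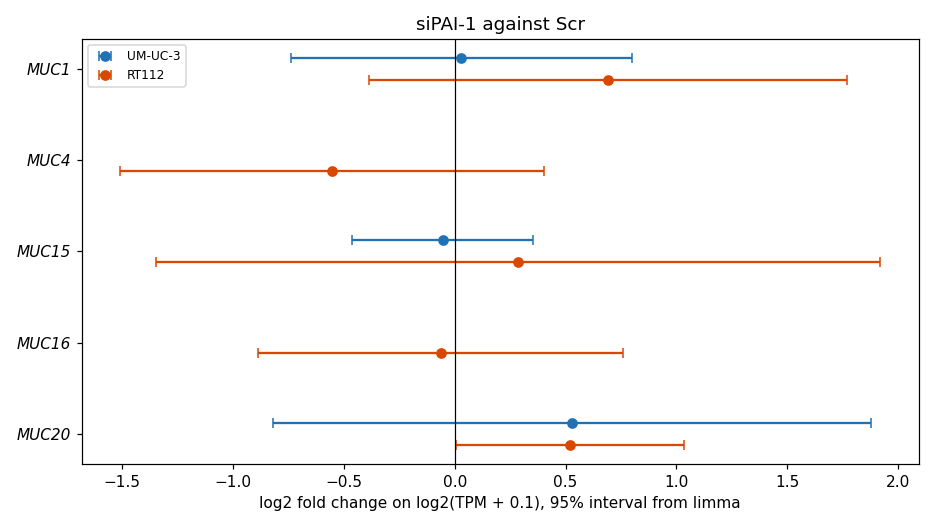
Log2 fold change of siPAI-1 against Scr on log2(TPM + 0.1) for each mucin above 0 in both groups, in UM-UC-3 and in RT112; points are limma estimates and bars are 95% intervals. All adjusted p-values are over 0.8, and MUC20 in RT112 (0.52) is the 1 interval that does not reach 0. MUC16, the RT112 value of MUC15 and the UM-UC-3 value of MUC20 rest on very few reads.

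The difference of the siPAI-1 effect between the lines was tested as an interaction over all 8 libraries, and none of the mucins passed (0.0% of 20274 genes tested, limma; 6.76% at an unadjusted p under 0.05, with 0 mucins among them). MUC1 differed by 0.66 on the log2 scale (95% interval -0.67 to 1.99, limma, adjusted p = 0.8464) and MUC15, near 0 in RT112, by 0.34 (limma, adjusted p = 0.9218). For MUC20, near 0 in UM-UC-3, the difference was -0.01 (95% interval -1.49 to 1.48, limma, adjusted p = 1.0000). That interval is wide enough for changes of over 2-fold in either direction, and the estimate depends on the pseudocount. No gene of the related lists passed in either line, glycosyltransferases, partners, sheddases and transcription factors included.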

How the data were processed

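What the authors deposited are TPM and FPKM for each gene in 8 RNA-seq libraries (75-base single reads), rounded to 2 decimals; the counts were not used here. Their methods name cutadapt, STAR, hg38, featureCounts and DESeq2, and the submitters' processing notes list STAR 2.5.0 and RSEM 1.2.25 with GRCh38, so which program made the deposited TPM and FPKM is open. As the authors' DESeq2 takes counts, limma 3.58.1 in R 4.3.3 (lmFit, eBayes with trend, two-sided) was run here on log2(TPM + 0.1), and p-values were adjusted by Benjamini-Hochberg over all genes above 0 in at least 1 library of the fit, the 4 libraries compared per fit and all 8 for the interaction. The test was tested on simulated data. The 92 spike-in entries, all at 0, were left out. Depth was estimated from FPKM steps of short genes with 1 transcript (searched from 20 to 45 M reads, where a depth 2 times as large would do as well). Reads per gene were estimated from that depth and the longest GENCODE 44 transcript, which makes them upper estimates with respect to length. Besides counting error they carry the errors of depth and rounding. Named are the 6 mucins, up to 3 genes per list and direction with the largest differences among those with an adjusted p under 0.05, the 3 nearest profiles per expressed mucin, and cell type markers; 1 gene covered by the rule is not reported here. Exon overlaps are from GENCODE 44 on GRCh37, positions and promoters from RefSeq on GRCh38.p14. The mucins and lists were chosen with earlier results of these data known. Summaries used Python 3.11.15, numpy 2.4.6, pandas 2.3.3 and matplotlib 3.10.9.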

Additional observations from a re-analysis of the deposited data

How the results depend on the processing

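Each result was recomputed with 1 or 0.01 TPM added, with FPKM, after scaling libraries to their median ratio, for genes averaging 1 TPM or more, with eBayes without trend, with a replicate block, in 1 fit over all 8 libraries (already the fit for the interaction) and with each library left out in turn. Over 28 results they gave 347 values, of which 310 kept their direction and side of the threshold or stayed within 1.5 times the count. Many of these belong to knock-down or interaction results far from the threshold, and a count can stay while its genes change. The share therefore does not measure how stable the differences between lines were. With a library left out, a fit has 3 libraries (7 for the interaction) and the lone one is assumed to vary like the others. The genes that passed between lines then numbered 5698 to 6564 in Scr (9909 with all) and 5294 to 7142 in siPAI-1 (10108 with all). The mucins that passed numbered 2 to 3 in siPAI-1, in place of 4. In Scr the number stayed at 4, but MUC1 lost its call in every case and MUC15 without either UM-UC-3 library, while MUC16 passed in its place in every case and MUC13 in that of MUC15, both at levels near 0 with equal or nearly equal values. Within UM-UC-3, 1 gene passed with the filter, and within RT112, 2 passed in the fit over all 8. For the interaction, 7 genes passed without trend and 0 to 123 with a library left out (123 without RT112 siPAI-1 replicate 2, 44 without UM-UC-3 siPAI-1 replicate 1, 20 without RT112 siPAI-1 replicate 1 and 1 without UM-UC-3 Scr replicate 2), with 0 mucins among them. The causes were not tested.

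With a library left out, the siPAI-1 estimates near 0 changed sign: in UM-UC-3, MUC1 ran from -0.20 to 0.26 and MUC20 from -0.029 to 1.09; in RT112, MUC15 ran from -0.49 to 1.06; for the interaction, MUC15 ran from -0.43 to 1.11 and MUC20 from -0.57 to 0.55. The MUC20 interaction was also 0.42 with a pseudocount of 1 TPM and 0.10 with FPKM, and it was -1.02 with 0.01 TPM added. No mucin passed in a knock-down comparison under any alternative run. The labels do not say whether same-numbered libraries of a line were made together. The differences between replicates correlated at 0.044 between Scr and siPAI-1 in UM-UC-3 and at -0.043 in RT112. A correlation near 0 shows no common shift and cannot settle how the libraries were paired. The replicate block gave 9387 and 9365 genes between lines, 4 mucins each, and 0 genes in both knock-down comparisons and the interaction; it changed no call of a mucin.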
